A study of Rattus norvegicus with 4 samples.

Results

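Nitric oxide and prostaglandin E2 are short-lived signals that glial cells make in inflammation, and their output depends largely on enzymes whose genes are switched on by cytokines. The genes described here are 5 that bear on this output. They are Nos2 (inducible nitric oxide synthase), Ptgs2 and Ptgs1 (cyclooxygenases 2 and 1), Ptges (the inducible microsomal prostaglandin E synthase) and Sod2 (the mitochondrial superoxide dismutase). They were chosen by symbol, each had 1 probe with a single gene symbol, and all 5 of 5 were measured among 18166 genes.

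The cells were primary astrocytes from the cerebral cortex of Sprague-Dawley rats aged 1 day, kept for 2 days in serum-free medium to remove microglia and meningeal cells. Astrocytes are the star-shaped glia of the brain. Each of the 4 cultures gave 1 array. A culture with control siRNA stayed untreated, a culture with control siRNA received interferon-γ (IFN-γ), a culture with control siRNA received IFN-γ and GW, and a culture with SHP siRNA received IFN-γ and GW, with treatment lasting 3 h. IFN-γ is a lymphocyte cytokine that activates glia, GW is a compound the labels give only by these letters, and all 4 cultures were transfected, so none shows cells free of siRNA. The labels do not say how many animals gave each culture.

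Inducible nitric oxide synthase makes nitric oxide from arginine and needs the cofactor tetrahydrobiopterin. Cyclooxygenases turn arachidonic acid into prostaglandin H2, which prostaglandin E synthase converts to prostaglandin E2; cyclooxygenase 1 is the more constant form and cyclooxygenase 2 the form that stimuli induce. Superoxide dismutase 2 removes superoxide, which otherwise reacts with nitric oxide to form peroxynitrite, and its gene is a known target of inflammatory signalling.

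The values are deposited signals read as log2, on which a difference of 1 is 2-fold. With 1 array per culture there is no replicate and no test, so each difference describes a pair of cultures and cannot be told apart from a difference between single cultures or arrays. As a yardstick, each difference is set beside those of the 11790 genes whose highest value reached the table median of 5.83, a filter that all 5 genes passed. The array medians ran from 5.79 to 5.87. Nr0b2, the gene of small heterodimer partner that the siRNA label points to, stood at 5.33, 5.14 and 5.20 in the control siRNA cultures and at 3.45 with SHP siRNA, all below that median.

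To show the regulatory sequence beside the measurements, the 250 bases before the start of 3 prostaglandin genes are given here from RefSeq, rat build GRCr8. Ptgs2 is the most responsive of them, Ptgs1 encodes the other cyclooxygenase, and the enzyme of Ptges acts on the product of both. The table holds this sequence for 4 of the 5 genes, all but Nos2. Each runs 5′ to 3′ on the gene's strand, and capitals mark every match to the motifs searched.
Ptgs2, chr13:64713813-64714062, plus strand: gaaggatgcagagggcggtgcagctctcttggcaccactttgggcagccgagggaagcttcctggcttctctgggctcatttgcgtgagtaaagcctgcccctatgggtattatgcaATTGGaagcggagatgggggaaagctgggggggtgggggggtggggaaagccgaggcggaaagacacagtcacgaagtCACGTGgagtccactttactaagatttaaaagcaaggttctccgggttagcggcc
Ptgs1, chr3:39981169-39981418, plus strand: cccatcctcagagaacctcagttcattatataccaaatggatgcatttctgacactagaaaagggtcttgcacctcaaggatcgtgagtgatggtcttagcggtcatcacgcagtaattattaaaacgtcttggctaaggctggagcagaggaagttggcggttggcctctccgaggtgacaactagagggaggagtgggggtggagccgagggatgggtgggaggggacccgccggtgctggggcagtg
Ptges, chr3:34586988-34587237, minus strand: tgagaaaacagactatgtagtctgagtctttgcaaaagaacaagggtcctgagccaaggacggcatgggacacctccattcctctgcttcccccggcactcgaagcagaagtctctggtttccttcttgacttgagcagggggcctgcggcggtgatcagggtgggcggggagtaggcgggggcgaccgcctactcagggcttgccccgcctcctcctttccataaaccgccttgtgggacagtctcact

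The motifs were searched on both strands: the interferon-γ activated site TTCNNNGAA, an NF-κB form with GGG and TTCC on either side of NNN, the cyclic AMP response element TGACGTCA, the AP-1 site TGANTCA, the TATA box TATAAA and the CCAAT box. The cyclic AMP element's core TGACG and the E-box CACGTG were added after the sequences were seen. Ptgs2 held 2 matches. One is a CCAAT box on the opposite strand, 133 to 129 bases before the start, a motif found in 34% of the 33469 promoters of the table. The other is the palindromic E-box CACGTG, 55 to 50 bases before the start, found in 5.59% of them. Ptgs1, Ptges and Sod2 held 0 matches each, which says only that these letters are not in this window. Of the other motifs, the activated site was in 7.67% of all promoters, the NF-κB form in 4.53%, the cyclic AMP element in 1.59%, its core in 18.2%, the AP-1 site in 6.34% and the TATA box in 12.9%. By gene position, Ptges and Ptgs1 both lie on chromosome 3, 5.39 megabases apart, while Nos2 lies on chromosome 10, Ptgs2 on 13 and Sod2 on 1.

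IFN-γ went with far higher Nos2 and Ptgs2 and with lower Ptgs1. Of the 5 genes, 2 were at least 2-fold higher with IFN-γ than without and 0 were 2-fold lower, where 1.61% of the 11790 genes were 2-fold higher and 0.288% 2-fold lower. The median difference of the 5 was 0.45, against -0.04 over all genes past the filter. With GW added to IFN-γ, the direction parted: Nos2 and Ptges were lower and Ptgs2 was higher. There 2 of the 5 genes, Nos2 and Ptges, were at least 2-fold lower and 0 higher, where 0.95% of genes were 2-fold lower and 0.958% 2-fold higher. With SHP siRNA under IFN-γ and GW, Nos2 was higher and Ptgs2 lower than with control siRNA, and 0 of the 5 reached 2-fold, where 0.144% of genes were 2-fold higher and 0.263% 2-fold lower.

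**Figure D1:**
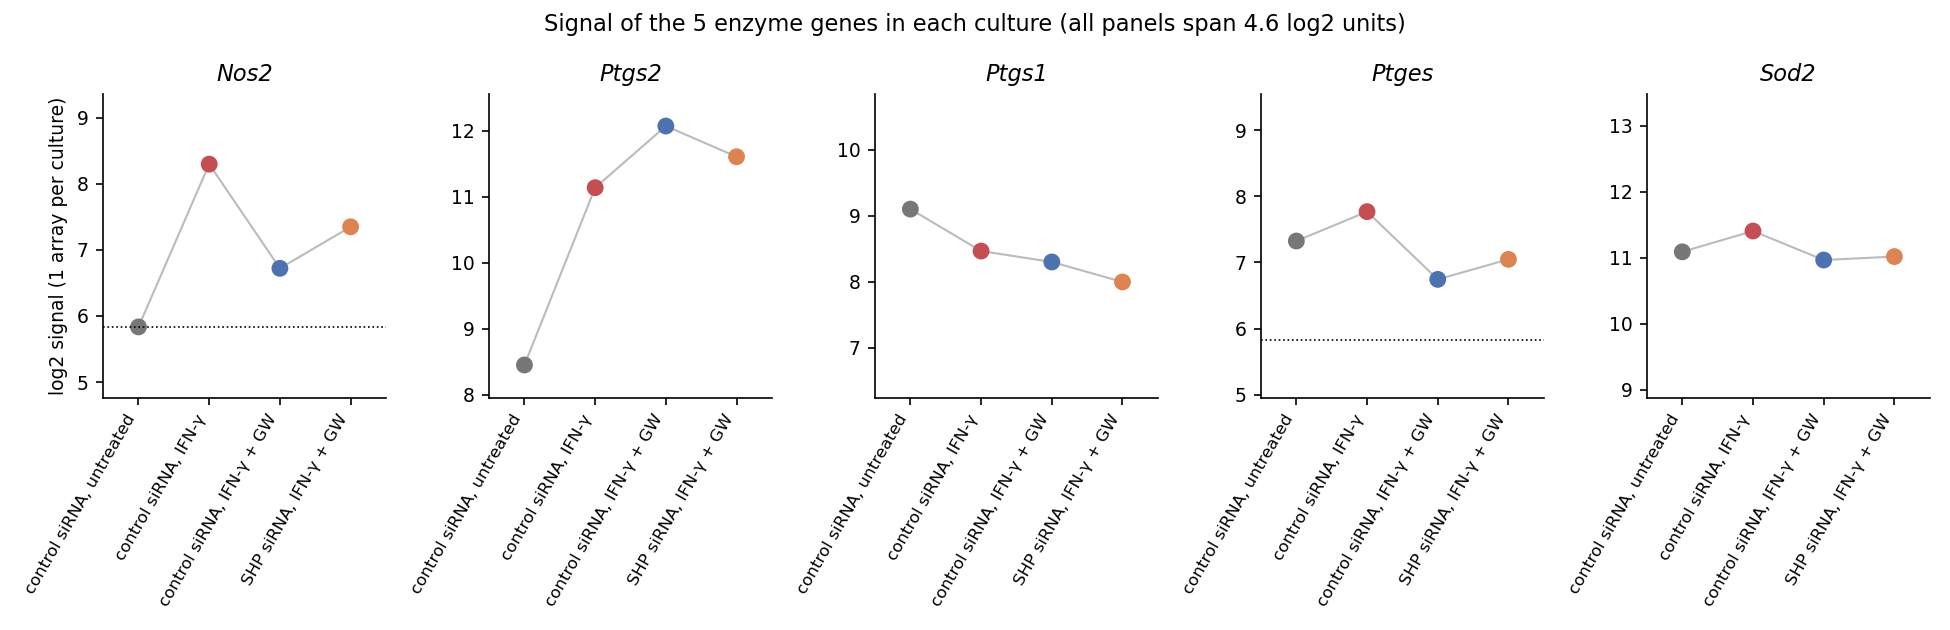
Log2 signal (vertical axis) of each of the 5 genes in the 4 cultures (horizontal axis), 1 point per array, with every panel spanning the same log2 range and the dotted line at the table median of 5.83 where it falls inside a panel. Nos2 is highest with IFN-γ alone at 8.30, Ptgs2 is highest with IFN-γ and GW at 12.07, and Ptgs1 is highest in the untreated culture at 9.10.

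Nos2, whose enzyme makes nitric oxide in large and sustained amounts, stood at 5.83 in the untreated culture, 8.30 with IFN-γ, 6.72 with IFN-γ and GW, and 7.35 with SHP siRNA under IFN-γ and GW. It was thus lowest without treatment, highest with IFN-γ alone, and between these in both GW cultures. The IFN-γ difference was 2.46, or 5.51-fold, rank 30 from the top among 11790 genes. The untreated value lay at the table median, and no background level of the arrays was used here, so the size of this fold is uncertain. The isoform genes Nos1 and Nos3 lay below 5.83 on all 4 arrays, between 4.997 and 5.52 for Nos1 and between 5.40 and 5.74 for Nos3.

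With GW added, Nos2 was 2.98-fold lower than with IFN-γ alone (difference -1.58), rank 28 from the bottom. It still stood 0.89 above the untreated culture, a 1.85-fold excess. With SHP siRNA in the same treatment it was 1.55-fold higher (0.63), outside the middle 95% of genes, which ran from -0.47 to 0.48, but short of 2-fold. That culture lay 0.95 below IFN-γ alone and 1.51 above the untreated one.

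Ptgs2 stood at 8.45 untreated, 11.14 with IFN-γ, 12.07 with IFN-γ and GW, and 11.60 with SHP siRNA under IFN-γ and GW. The untreated culture was low and the 3 treated ones high, in an order unlike that of Nos2, since IFN-γ alone was the lowest of those 3. The IFN-γ difference was 2.68, or 6.42-fold, rank 18 from the top. Under GW it was higher still by 0.93, or 1.91-fold, rank 127 from the top. The GW culture with control siRNA therefore stood 12.3-fold above the untreated one, rank 8 from the top. In that comparison 2.49% of genes passed 2-fold, counting both directions together. SHP siRNA went with a value 1.38-fold lower (-0.46), at the edge of the middle 95%.

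**Figure D2:**
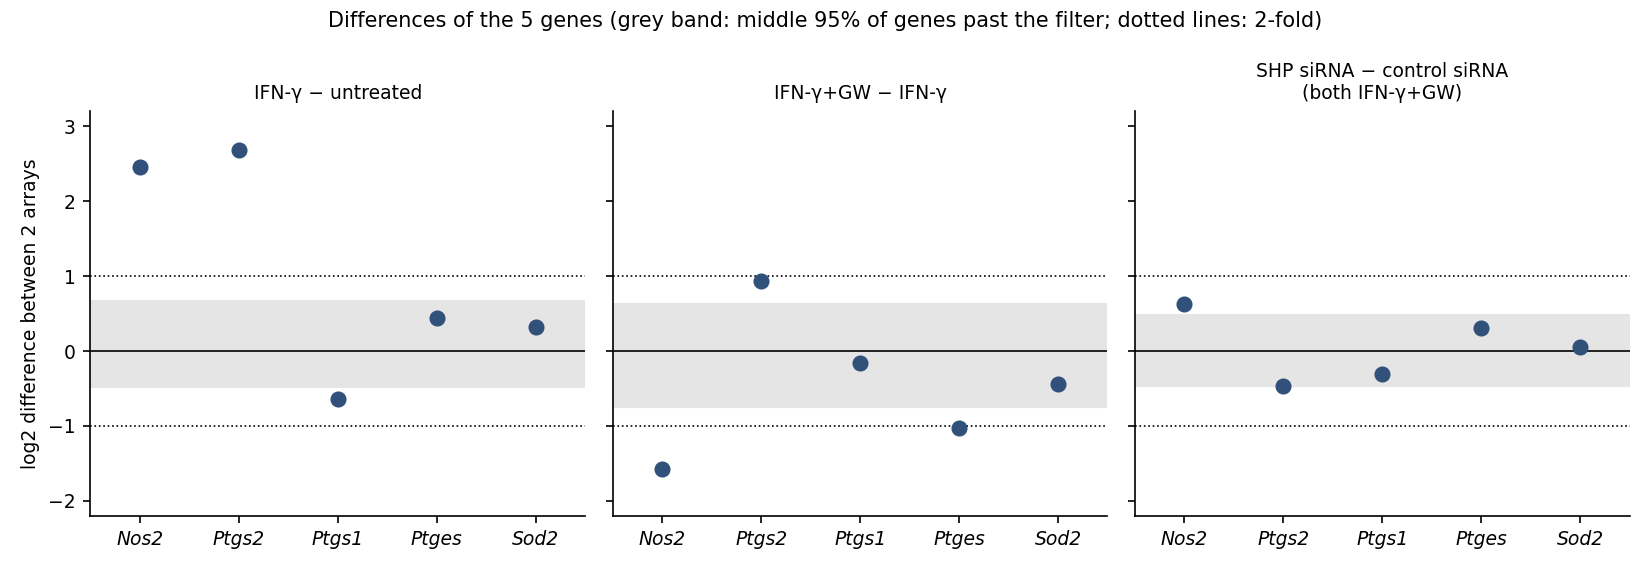
Log2 difference between a pair of arrays (vertical axis) for the 5 genes (horizontal axis) in the 3 main comparisons, 1 point per gene, with a grey band for the middle 95% of genes past the filter and dotted lines at 2-fold. Nos2 at -1.58 and Ptgs2 at 0.93 lie on opposite sides of the band when GW is added, after similar IFN-γ differences of 2.46 and 2.68.

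The contrast of Nos2 with Ptgs2 under GW was the widest among the 10 pairs of these genes in that comparison. Their IFN-γ differences were 0.22 apart. Under GW the Nos2 difference was 2.51 below that of Ptgs2, which is a 5.69-fold change of the one relative to the other. It ranged from -2.61 to -2.49 over the other scalings of the arrays. Under SHP siRNA the order turned, with the Nos2 difference 1.09 above that of Ptgs2, or 2.13-fold. The GW comparison shares the IFN-γ array with the IFN-γ comparison and the array of IFN-γ and GW with the SHP siRNA comparison, and the error of a shared array enters with opposite signs, so they are not separate support for one pattern.

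Ptges, which completes the synthesis of prostaglandin E2, stood at 7.32 untreated, 7.77 with IFN-γ, 6.74 with IFN-γ and GW, and 7.05 with SHP siRNA under IFN-γ and GW. It was highest with IFN-γ alone and lowest with IFN-γ and GW, where it lay 0.58 below the untreated culture, while Nos2 lay above it there. The IFN-γ difference was 0.44 (1.36-fold), inside the middle 95%. The GW difference was -1.02 (2.03-fold lower), rank 108 from the bottom. That call sat at the threshold, since the difference was -0.99 after quantile normalization and -0.94 after median centring. Ptgs2 crossed 2-fold the other way, at 1.02 after median centring and 1.04 after cyclic loess. Of the 2-fold calls with GW, that of Nos2 held under the deposited scaling and the 3 others tried. Across the GW comparison, the Ptgs2 difference exceeded that of Ptges by 1.96, or 3.88-fold, although the 2 enzymes act in sequence. The other prostaglandin E synthase genes, Ptges2 and Ptges3, differed little with GW, at -0.02 and 0.16.

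Ptgs1 stood at 9.10 untreated, 8.47 with IFN-γ, 8.30 with IFN-γ and GW, and 7.998 with SHP siRNA under IFN-γ and GW. The untreated culture was highest and the SHP siRNA culture lowest. The IFN-γ difference was -0.63 (1.55-fold lower), rank 139 from the bottom and outside the middle 95%. The GW and SHP siRNA differences of -0.17 and -0.30 lay inside it. From the untreated culture to the SHP siRNA culture Ptgs1 was 2.15-fold lower. In that comparison 2.48% of genes passed 2-fold, counting both directions together.

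Sod2 stood at 11.09 untreated, 11.41 with IFN-γ, 10.97 with IFN-γ and GW, and 11.02 with SHP siRNA under IFN-γ and GW. Its 4 values spanned 0.44, the narrowest range of the 5 genes. The differences were 0.31 with IFN-γ, -0.44 with GW and 0.05 with SHP siRNA, each inside the middle 95%. At 3 h, no 2-fold difference of this known inflammatory target was measured between any pair of the 4 cultures.

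Ptgs1 is also a gene of microglia in the brain, so the markers of these resident macrophages are given beside it. Of 19 such markers 18 had a probe, and all 18 lay above the table median on all 4 arrays, although the cultures had been treated to remove microglia. Their mean log2 value was 9.69 untreated, 9.31 with IFN-γ, 8.88 with IFN-γ and GW, and 9.05 with SHP siRNA, and their summed signal was 14.31, 14.02, 13.51 and 13.68 on the log2 scale. With IFN-γ 16 of 18 lay below 0 (median -0.35), with GW again 16 (median -0.47), and with SHP siRNA 15 lay above 0 (median 0.17). The medians of all genes were -0.04, -0.05 and 0.01. At least 2-fold lower were Cx3cr1 with IFN-γ (-1.23) and Tyrobp and Ptprc with GW (-1.22 and -1.16), and 0 were 2-fold higher. Of all genes, 0.288% were 2-fold lower with IFN-γ and 0.95% with GW. Cx3cr1 went the other way with GW, at 0.68. Nos2 and Ptges moved down and up with most of the markers in the GW and SHP siRNA comparisons. With IFN-γ, where most of the markers lay lower, Nos2 and Ptges lay higher, at 2.46 and 0.44. Ptgs1 moved down with the markers under IFN-γ but lay lower with SHP siRNA, where most of them lay higher. The part of these cells in the results was not tested, and fewer cells of a type cannot be told apart from less RNA per cell.

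Astrocyte markers differed by less with IFN-γ and GW than the microglia markers did, but not with SHP siRNA. Of 12, 10 had a probe and 9 passed the filter (Gjb6 lay below it), with Gfap between 12.03 and 12.11 and none at 2-fold in any of the 3 main comparisons. The medians of the 9 were 0.09 with IFN-γ, -0.24 with GW and 0.20 with SHP siRNA. Aqp4, the astrocyte water channel gene, was at 0.53 with IFN-γ and 0.71 with SHP siRNA, the latter outside the middle 95% of genes, and S100b was at 0.48 with SHP siRNA. The mean over all 10 with a probe was 9.59, 9.69, 9.57 and 9.70 in the order of the cultures above. Of 8 meningeal and fibroblast markers 6 passed the filter, and all 6 were higher with SHP siRNA (median 0.60), with Postn at 1.43. Over all 8, which had a probe each, the mean was 7.86, 7.94, 7.73 and 8.27 and the summed signal 12.59, 12.63, 12.53 and 12.84, and their part in the SHP siRNA differences was not tested. Neuron, oligodendrocyte and endothelial lists had 3, 6 and 2 genes past the filter and none at 2-fold. Of all genes, 0.144% to 1.61% were past 2-fold per direction, so none in lists this short, astrocyte markers included, is near that share.

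**Figure D3:**
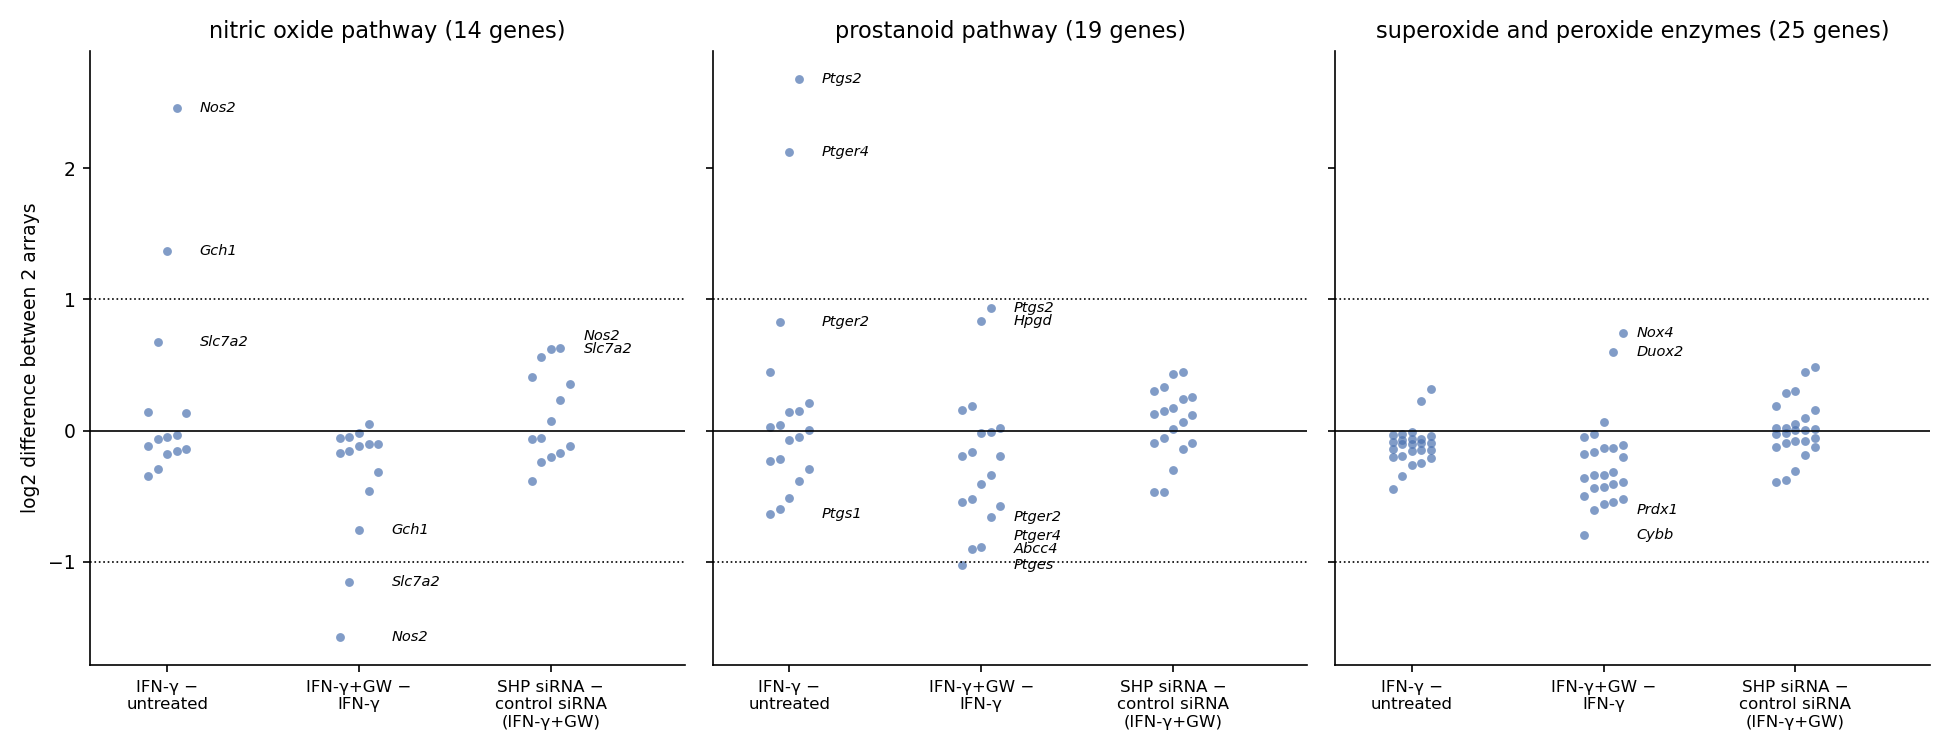
Log2 difference between a pair of arrays (vertical axis) in the 3 main comparisons (horizontal axis) for genes past the filter in the nitric oxide, prostanoid and superoxide and peroxide lists, 1 point per gene, with names at differences of 0.6 or more in size and dotted lines at 2-fold. Nos2 and Gch1 stand out in the first panel with IFN-γ at 2.46 and 1.37, and Ptgs2 and Ptger4 in the second at 2.68 and 2.12, while no gene of the third panel reaches 2-fold. Of all genes past the filter, 0.144% to 1.61% were past 2-fold per direction in these comparisons.

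Around Nos2, a gene of its cofactor's synthesis and a gene of its substrate's uptake were, like Nos2, highest with IFN-γ alone. Of 22 nitric oxide pathway genes 14 passed the filter, 2 were at least 2-fold higher with IFN-γ and 0 lower, and the median of -0.06 was close to the -0.04 of all genes. Of all genes, 1.61% were 2-fold higher with IFN-γ and 0.288% 2-fold lower. Gch1, which encodes the first and rate-limiting enzyme of tetrahydrobiopterin synthesis, stood at 6.25 untreated, 7.62 with IFN-γ, 6.86 with IFN-γ and GW, and 7.43 with SHP siRNA. Slc7a2, an arginine transporter gene, stood at 8.80, 9.47, 8.32 and 8.94 in that order. The other arginine transporter gene of the list, Slc7a1, stood at 8.68, 8.83, 8.71 and 9.06, highest with SHP siRNA.

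Gch1 kept the order of cultures seen for Nos2, and Slc7a2 differed from it in that its GW value lay below the untreated one. The IFN-γ differences were 1.37 for Gch1 and 0.67 for Slc7a2. With GW, Slc7a2 was at -1.15 and Gch1 at -0.76, and Nos2 and Slc7a2 were the 2 list genes at least 2-fold lower, with 0 higher. Of all genes, 0.95% were 2-fold lower with GW and 0.958% 2-fold higher. With SHP siRNA none reached 2-fold (0 higher and 0 lower), and the differences of Slc7a2 and Gch1 were 0.62 and 0.56. Of all genes, 0.144% were 2-fold higher with SHP siRNA and 0.263% 2-fold lower.

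No other gene of the list past the filter reached 2-fold. Gucy1b1 was at -0.46 with GW, where its signal of 5.84 lay at the table median, and at 0.41 with SHP siRNA. Ass1, which begins the recycling of citrulline to arginine, was lowest with IFN-γ at -0.35. Pts, the next enzyme of tetrahydrobiopterin synthesis after Gch1, was the 1 gene above 0 with GW, at 0.05, against 13 below. After median centring the median of all genes with GW was 0.03 in place of -0.05, so list genes near 0 in that comparison would lie above it. Ddah1, which degrades an inhibitor of nitric oxide synthases, was lowest with SHP siRNA at -0.38.

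Around Ptgs2, a prostaglandin receptor gene was the other 2-fold difference with IFN-γ. Of 29 prostanoid genes 28 had a probe and 19 passed the filter, with 2 at least 2-fold higher, 0 lower and a median of 0.01. Of all genes, 1.61% were 2-fold higher with IFN-γ and 0.288% 2-fold lower. Ptger4, the gene of the prostaglandin E2 receptor EP4, stood at 7.74 untreated, 9.86 with IFN-γ, 8.98 with IFN-γ and GW, and 9.42 with SHP siRNA. Its IFN-γ difference of 2.12 was followed by -0.88 with GW and 0.44 with SHP siRNA, the highest of the list there.

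Over the 4 arrays, each gene centred on its mean, Ptger4 lay 0.51 log2 units from Nos2 and 1.81 from Ptgs2. Ptger2, the EP2 receptor gene, stood at 6.17, 6.99, 6.34 and 6.51 and lay 1.21 from Nos2 and 2.60 from Ptgs2. Both receptor genes were lower with GW, where Ptgs2 was higher. Nos1, Nos3, Slc7a1, Gucy1b1, Ptges2, Ptges3, Ptger2 and the prostanoid genes in the next paragraph other than Hpgd were chosen for mention after their values were seen.

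With GW, 1 of the 19 was at least 2-fold lower (Ptges) and 0 were higher, where 0.95% of all genes were 2-fold lower and 0.958% 2-fold higher. The median of the 19 was -0.19 against -0.05 over all genes, and 14 lay below 0. Abcc4, a transporter that can export prostaglandins, was at -0.90. Hpgd, whose enzyme inactivates prostaglandin E2, stood beside Ptgs2 above 0, at 0.84, and was the lowest of the list with SHP siRNA at -0.47, level with Ptgs2 at -0.46. Pla2g4a, whose enzyme releases arachidonic acid from membranes, was at -0.60 with IFN-γ and -0.40 with GW. The synthase genes Hpgds and Tbxas1, for prostaglandin D2 and thromboxane, were at -0.38 and -0.52 with IFN-γ and at -0.58 and -0.33 with GW. With SHP siRNA 0 of 19 reached 2-fold in either direction, where 0.144% of all genes were 2-fold higher and 0.263% 2-fold lower.

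Around Sod2, most genes for superoxide and peroxide handling lay a little below 0 with IFN-γ and with GW, but not with SHP siRNA. The medians of all genes had the same signs, at -0.04, -0.05 and 0.01. After median centring the all-gene median with GW was 0.03, so counts below 0 depend on the scaling. Of 28 listed 26 had a probe and 25 passed the filter, and 0 reached 2-fold in any of the 3 comparisons. Of all 11790 genes, 0.144% to 1.61% were past 2-fold per direction, so 0 of 25 is near that share. With IFN-γ 23 of 25 lay below 0 (median -0.10, against -0.04 over all genes), and Sod2 was the highest of the list at 0.31, while Ncf4, a subunit gene of the phagocyte oxidase, was lowest at -0.45. With GW 22 lay below 0, and the median of -0.34 compares with -0.05 over all genes. The highest there was the superoxide-forming oxidase gene Nox4 at 0.75 and the lowest Cybb, the catalytic subunit gene of the phagocyte oxidase, at -0.80. With SHP siRNA 13 lay above 0 and 12 below (median 0.00), Cybb was highest at 0.48 and Ncf4 lowest at -0.39.

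The genes most like Nos2 and most like Ptgs2 were found by the distance between values centred on each gene's mean over the 4 arrays, among 11669 genes. For Nos2 the nearest were the membrane-bound chemokine gene Cx3cl1 at 0.14 log2 units, the itaconate-forming enzyme gene Acod1 at 0.15, the necroptosis kinase gene Ripk3 at 0.21, the neuronal pentraxin gene Nptx1 at 0.33, the lectin receptor gene Clec4e at 0.34 and the inflammasome gene Nlrp3 at 0.37. Cx3cl1 stood at 9.47, 11.99, 10.41 and 11.17, and Acod1 at 7.26, 9.83, 8.19 and 8.97 in the order untreated, IFN-γ, IFN-γ with GW, and SHP siRNA. All 6 were higher with IFN-γ (2.00 to 2.57), lower with GW (-1.88 to -1.36) and higher with SHP siRNA (0.56 to 0.98). That agreement follows from their choice by likeness to Nos2 over these same arrays. Clec4e passed the filter only through the culture with IFN-γ alone. It lay below 5.83 in the untreated and both GW cultures, so the size of its differences is uncertain.

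Ptgs2 itself lay 2.22 from Nos2. Among its closest were Csrnp1, a nuclear protein gene, at 0.32, the stress-response phosphatase subunit gene Ppp1r15a at 0.48, the small Maf gene Maff at 0.61, the AP-1 subunit gene Junb at 0.62 and the neutrophil chemokine gene Cxcl1 at 0.63. Csrnp1 stood at 6.34, 8.86, 10.21 and 9.64 in the same order, lowest untreated and highest with IFN-γ and GW, as Ptgs2 was. Maff and Cxcl1 differed by 0.14 and 0.26 with GW, less than the 0.93 of Ptgs2. With SHP siRNA Maff and Cxcl1 lay higher, at 0.13 and 0.11, where Ptgs2 lay lower at -0.46. Csrnp1 (-0.57), Ppp1r15a (-0.06) and Junb (-0.24) lay lower there. With 4 points a gene, such closeness is a description and has no test.

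**Figure D4:**
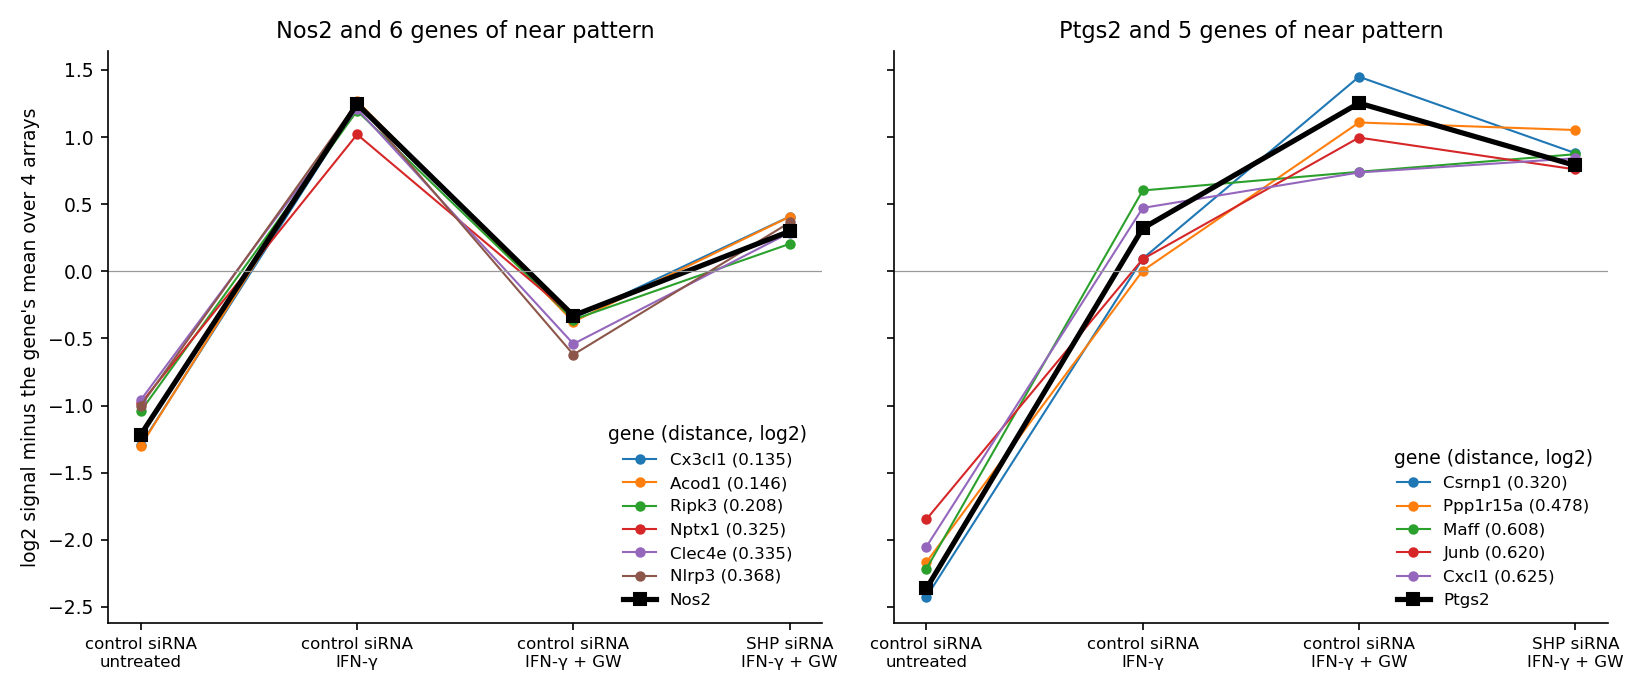
Log2 signal minus each gene's own mean (vertical axis) in the 4 cultures (horizontal axis) for Nos2 with its 6 nearest genes and for Ptgs2 with 5 of its nearest, 1 line per gene, with the distance in log2 units in the key. The Nos2 lines peak with IFN-γ alone, while Ptgs2 peaks with IFN-γ and GW. The distances run from 0.14 to 0.37 for Nos2 and from 0.32 to 0.63 for Ptgs2.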

How the data were processed

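Total RNA of 4 cultures was hybridised to 1-colour arrays as biotin-labelled sense cDNA, per the labels' protocols. The authors' deposited table holds 1 value per probe for 29489 probes. Its values, from 1.14 to 13.4, were read as log2, since neither log base nor unit is stated. The authors' background correction, probe summary and normalization of these log2 values before they were deposited are not given in these sources.

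Symbols came from the platform annotation (18511 probes with 1 symbol, 575 with several, 10403 with none listed), updated or kept through Entrez ID for 18394. The probe with the highest mean stood for a gene, which left 18166 genes. Of these, 11790 reached the table median on an array. Differences between arrays were taken at a 2-fold threshold, with no test. The subtraction and counting steps were tested on simulated data.

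The 5 genes and all lists were chosen with earlier results of these data known. From the lists were named genes at 2-fold, the highest and the lowest gene per comparison; for Nos2 and Ptgs2, the 6 nearest genes, without provisional, receptor-family and small RNA symbols. For Ptgs2, 1 of the 6 is not reported here. Alternatives were quantile normalization and cyclic loess (limma 3.58.1), median centring, mean of probes, other filters and other thresholds.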

Additional observations from a re-analysis of the deposited data

How the results depend on the processing

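The differences of the 5 genes in the 3 main comparisons and the Nos2 to Ptgs2 contrast under GW kept their direction under quantile normalization, median centring, cyclic loess and the mean of a gene's probes. In 60 of 60 cases the 5 genes' differences moved by less than the robust spread of all genes in that comparison, and the contrast did so in 4 of 4. Each of the 5 genes has 1 probe, so the mean of probes is the same value and could not move. Median centring shifts both genes of the contrast alike, so it could not change the contrast either. The 2-fold calls of Ptges and Ptgs2 under GW depend on the scaling, as given above.

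The counts of genes past the threshold follow it by construction. With IFN-γ they were 356 higher and 187 lower at 1.5-fold, and 80 and 2 at 3-fold. With GW they were 332 and 586, and 50 and 26. With SHP siRNA they were 168 and 142, and 1 and 4, and without the filter, which adds genes of low signal, 27 and 48. The other 28 such counts stayed within 1.5 times. Of 126 counts over the pathway lists under alternatives, 13 moved beyond that. A planned pseudocount was not run, because the values are on a log scale. No paired analysis was possible because each group holds 1 array. Low signal limits Nos2 in the untreated culture most.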
